A study of Mus musculus with 6 samples.

Results

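Gpi1, a gene of glycolysis, and Gamt, a gene of creatine synthesis, were followed on their single mRNA probes in the hippocampus of mice with and without Nrf2. They are 2 of the 44 genes that could be named among the 50 mRNA probes of a circular RNA array, which held 14286 circRNA and mRNA probes in all. Both were chosen by their scaled log2 signal on these same 6 arrays, which was lower in the knockout. Their levels and differences between genotypes are therefore given as a description, with no test, and support nothing beyond themselves.

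Hippocampi of 6 male ICR mice aged 3 to 4 months were compared, 3 wild type (Nrf2 +/+) and 3 with a knockout of the Nrf2 gene (Nrf2 -/-), each mouse on its own array. The labels do not describe the knockout allele. The RNA of both genotypes had been digested with RNase R, which degrades linear RNA and spares circles, then copied from random primers and labelled with Cy3. An mRNA probe on such an array can read linear transcript that escaped the digestion or a circle that holds the probed exon, and these were not separated here. The wild-type arrays and knockout 1 were read in scan 1, and knockouts 2 and 3 in scan 2. Fewer cells of a type and less RNA per cell cannot be told apart in whole tissue.

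Gpi1 encodes glucose-6-phosphate isomerase, which turns glucose 6-phosphate into fructose 6-phosphate, the step of glycolysis after hexokinase. The same glucose 6-phosphate can enter the pentose phosphate pathway, which supplies NADPH, so the enzyme sits where these routes part. Gamt encodes guanidinoacetate N-methyltransferase, which methylates guanidinoacetate to creatine with S-adenosylmethionine as the donor. Creatine and creatine kinase buffer ATP in brain cells, and inherited loss of the methyltransferase causes a cerebral creatine deficiency. Nrf2 is a transcription factor that binds antioxidant response elements, mainly as a partner of small Maf proteins, and is known for switching on genes of glutathione synthesis, detoxification and NADPH supply.

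The Gpi1 probe (A_51_P426886) belongs to a gene of 29010 bp on chromosome 7, bases 34201327 to 34230336 of GRCm38.p6, with 1 RefSeq transcript. The Gamt probe (A_51_P484869) belongs to a gene of 2875 bp on chromosome 10, bases 80258151 to 80261025, with 3 RefSeq transcripts, 2 of them curated. The files do not place the probes within these transcripts. Both genes are on the minus strand. A window of 250 bases at the start of each gene, the part upstream of the transcription start that the promoter table uses, is shown because the knocked-out protein is a DNA-binding factor and both probes were lower without it. The sequences are from RefSeq (GRCm38.p6, chr7:34230337-34230586 and chr10:80261013-80261262), printed 5′ to 3′ along the gene. For Gamt that start lies inside the gene's outermost bounds given above, so that 13 bases of its window fall within them. Capitals mark matches to the GC box (GGGCGG or its reverse complement).
Gpi1: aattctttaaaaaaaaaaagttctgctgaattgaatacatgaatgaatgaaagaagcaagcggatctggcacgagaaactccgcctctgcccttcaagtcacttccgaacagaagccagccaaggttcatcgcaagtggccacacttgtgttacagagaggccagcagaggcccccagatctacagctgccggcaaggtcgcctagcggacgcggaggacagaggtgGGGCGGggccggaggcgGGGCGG
Gamt: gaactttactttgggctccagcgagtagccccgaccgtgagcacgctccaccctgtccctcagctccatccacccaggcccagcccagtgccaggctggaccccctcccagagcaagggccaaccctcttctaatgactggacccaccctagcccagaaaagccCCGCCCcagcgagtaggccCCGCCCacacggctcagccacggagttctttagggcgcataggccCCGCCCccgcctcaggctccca

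The Gpi1 window held 2 GC boxes on the gene's strand, both close to the start, and the Gamt window held 3 on the opposite strand. Among all 32851 promoter windows of this length in the table, 32.7% held at least 1 match on either strand. The core of the antioxidant response element, searched as TGACNNNGC on both strands, had no match in either window, and 10.2% of all windows held one. An E-box (CACGTG), a core of the hypoxia response element (ACGTG, which the E-box contains), a CCAAT box (CCAAT) and a TATA box (TATAA) were not matched in either window, against 6.0%, 16.6%, 33.8% and 22.8% of all windows. The share of G and C was 55.2% for Gpi1 and 66.8% for Gamt, and the median over all windows was 52.4%. No binding was measured, and a match or its absence in this stretch describes the letters alone.

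Gpi1 signal was high in every wild-type mouse and clearly lower in every knockout mouse. Relative to the array's 75th percentile over circRNA probes, its log2 signal was 1.75, 1.89 and 2.65 in wild-type mice 1 to 3, against 0.59, -0.40 and 0.73 in knockout mice 1 to 3. The groups did not overlap, with the highest knockout array 1.01 below the lowest wild-type array. All knockout arrays lay below all wild-type arrays for 17.3% of the 13380 probes measured on every array. Knockout 2 stood lowest of all and wild type 3 highest, while knockouts 1 and 3 lay close together, as did wild types 1 and 2. The mean was 2.09 ± 0.48 in wild-type mice against 0.31 ± 0.62 in knockouts (SD, n = 3 each), with a log2 difference of -1.79 (limma SE 0.358), or 3.45-fold lower signal. The difference exceeded the spread between mice of either genotype. Over the 9 pairs of a knockout and a wild-type mouse, it ran from -3.04 to -1.01.

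Gamt signal was also lower in each knockout mouse, by a smaller step. Its log2 signal was -0.56, -0.66 and -0.44 in wild-type mice 1 to 3, against -0.99, -1.40 and -1.16 in knockout mice 1 to 3, so that the groups did not overlap. The gap between the lowest wild-type and the highest knockout array was 0.33. Such a lack of overlap, with the knockout lower, held for 17.3% of all probes and for 45.5% of the mRNA probes. Knockout 2 was again the lowest array and wild type 3 the highest, as for Gpi1, but knockout 1 was here the highest of the knockouts. The mean was -0.56 ± 0.11 in wild-type mice against -1.18 ± 0.20 in knockouts (SD, n = 3 each), with a log2 difference of -0.63 (limma SE 0.175), or 1.54-fold lower signal. That difference was larger than either SD. Over the 9 pairs of mice it ran from -0.95 to -0.33.

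The probes were measured well within the range of the scanner. All 10 spots of each probe were well above background on each of the 6 arrays, and none was saturated or flagged as non-uniform. The SD between the 10 spots of an array was 0.024 to 0.051 on the log2 scale for Gpi1 and 0.025 to 0.074 for Gamt, far below the differences between genotypes. Every spot of each probe lay at the same grid position on all arrays, and the difference of knockout from wild type was -1.88 to -1.75 over the 10 positions of Gpi1 and -0.74 to -0.57 over those of Gamt. The lower signal was therefore present at all positions. The spots are repeat readings of 1 hybridised sample and add no mice. The 11 negative probes that were never well above background set a floor, which was itself lowest on knockouts 2 and 3, at -8.45 and -8.00 against -7.51 to -6.99 on the other arrays. On the log2 scale Gpi1 lay at least 7.65 above that floor on every array, and Gamt at least 6.06 above it.

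**Figure D1:**
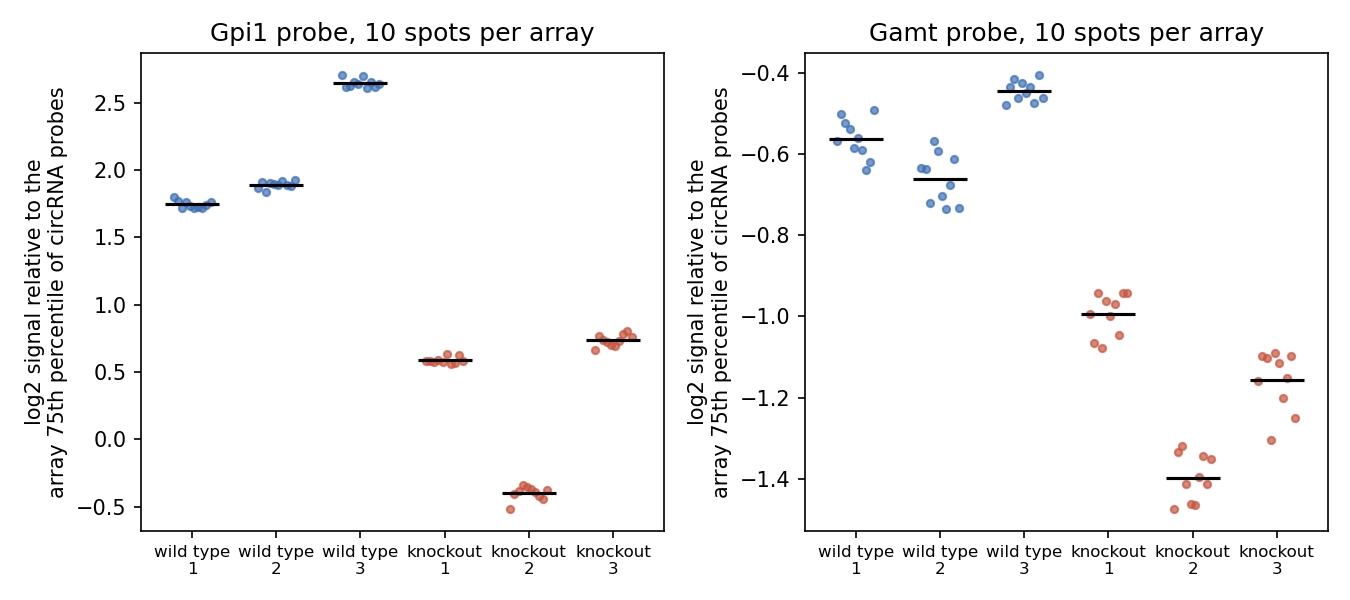
Log2 signal of each of the 10 spots (points) and their mean (line) for the Gpi1 and Gamt probes on the 6 arrays, relative to the array's 75th percentile over circRNA probes; blue marks wild type and red marks knockout. The y axes differ between panels: the gap between genotypes is 1.01 for Gpi1 and 0.33 for Gamt, and the spots of an array scatter by an SD of at most 0.074.

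Before any scaling between arrays, Gpi1 signal was almost the same in the 3 wild-type mice. Its intensity was 1347, 1387 and 1445 units in wild-type mice 1 to 3, against 574, 365 and 551 in knockout mice 1 to 3. The wild-type arrays thus lay within 98 units of each other, and the highest knockout array reached 42.6% of the lowest of them. The unscaled wild-type SD of 0.051 on the log2 scale was small beside the median of 0.473 over all 13380 probes measured on every array, of which 0.164% had an SD this low. Over the same wild-type arrays the 75th percentile of the circRNA probes went from 402 and 374 to 231 units. Relative to that percentile, wild type 3 stood apart for Gpi1. On the log2 scale it was also highest over the median of the other mRNA probes, at 6.29 against 5.49 and 5.49. Over Gamt it was at 3.09, against 2.31 and 2.55. Without scaling the log2 difference was -1.52, or 2.86-fold lower, and the gap between groups was 1.23. Without scaling, 3.8% of all probes had every knockout array below every wild-type array.

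Gamt behaved differently before scaling, and its groups then overlapped. Its intensity was 272, 236 and 169.7 units in wild-type mice 1 to 3, against 191.8, 183 and 149 in knockout mice 1 to 3. Wild type 3, at 169.7 units, was below knockouts 1 and 2. The unscaled log2 difference was -0.36, close to the wild-type SD of 0.35 between arrays. The median difference over all probes was 0.31 on this unscaled measure, against 0.04 after scaling. The separation of the Gamt groups is thus seen after scaling and not in the raw intensities, whereas that of Gpi1 is seen in both.

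**Figure D2:**
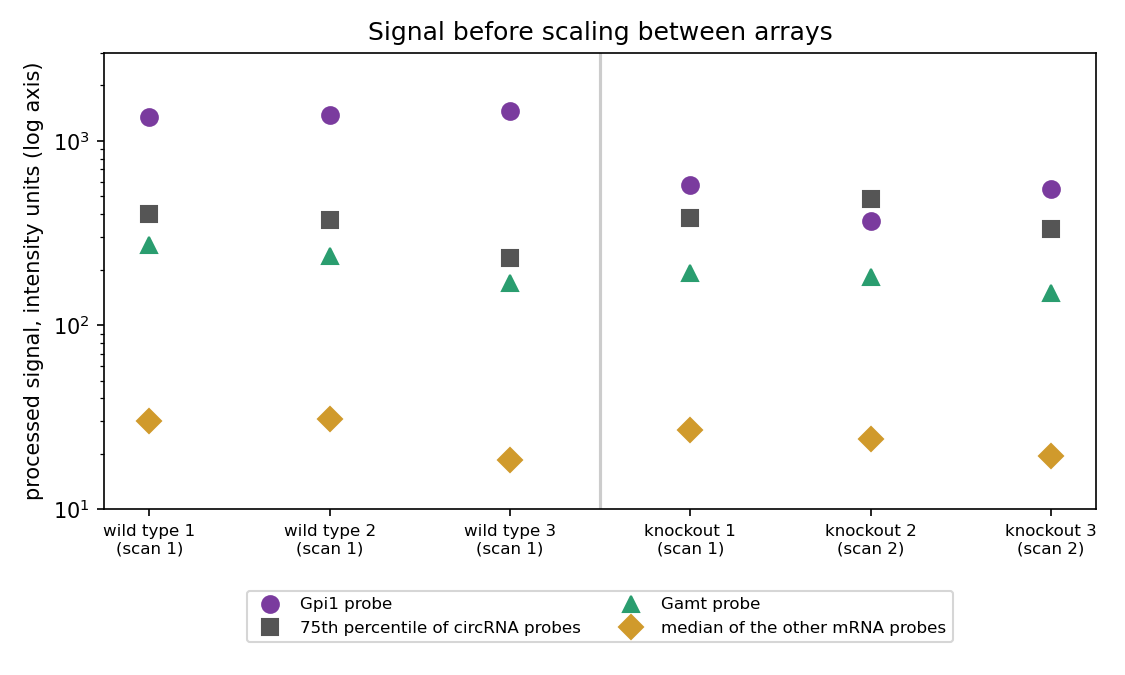
Processed signal in intensity units (log axis) before scaling between arrays, for the Gpi1 probe, the Gamt probe, the 75th percentile of the circRNA probes and the median of the other mRNA probes on each array, 1 mouse per array. Gpi1 stays between 1347 and 1445 units in wild type while the circRNA percentile drops to 231 units on wild type 3, and Gamt on wild type 3 is below knockouts 1 and 2.

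After scaling to the circRNA probes, the median signal of the other mRNA probes was also lower on each knockout array than on each wild-type array. This median of 48 probes lay at -3.74, -3.59 and -3.64 in wild-type mice 1 to 3, against -3.82, -4.33 and -4.08 in knockout mice 1 to 3. Unscaled it was 30.0, 30.9 and 18.5 units in wild-type mice against 27.1, 24.0 and 19.6 in knockouts, with wild type 3 the lowest of all arrays. Measured against that median, Gpi1 stood at 5.49, 5.49 and 6.29 in wild type and at 4.40, 3.93 and 4.82 in knockout, still without overlap, as for 5.22% of all probes on this scale. The Gpi1 difference was then -1.37 (limma SE 0.316), or 2.59-fold lower. Gamt stood at 3.18, 2.93 and 3.20 in wild type and at 2.82, 2.93 and 2.92 in knockout. Its difference was then -0.21 (limma SE 0.225), and the groups were apart by only 0.0032, while the median difference over all probes was 0.45. On this scale Gamt was not separated from the rest of the mRNA probes beyond its limma SE, which draws on the variance of all probes. The SD of Gamt itself between mice was 0.15 in wild type and 0.06 in knockout.

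The 2 probes differed between genotypes by unequal amounts. The log2 signal of Gpi1 over Gamt within an array, which no common scaling factor can move, was 2.31, 2.55 and 3.09 in wild-type mice 1 to 3, against 1.58, 1.00 and 1.89 in knockout mice 1 to 3. The groups did not overlap, but how often this holds for other pairs of probes was not examined. The mean went from 2.65 ± 0.40 to 1.49 ± 0.45 (SD, n = 3 each), a difference of -1.16, so that the ratio was 2.23-fold lower in the knockout. A ratio of this kind shows unequal change and does not compare the abundance of the transcripts.

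Among the 44 mRNA probes tested, which are those well above background on at least 3 arrays, Gpi1 ranked at 3 by the size of its lower mean and Gamt at 20. Their median difference was -0.59, with a range from -1.89 to 0.20, while the median over 13397 circRNA probes was 0.04. Gamt was thus near the middle of the mRNA probes. Gpi1 had the widest gap between genotypes of all 44, both scaled and unscaled. All knockout arrays lay below all wild-type arrays for 45.5% of the mRNA probes, against the 17.3% over all probes. Without scaling the share of the mRNA probes was 11.4%. A gap at least as wide as that of Gpi1 was found for 0.396% of all probes, and one at least as wide as that of Gamt for 5.39%. Fitted over all 13441 probes tested, limma called 0.149% at a Benjamini-Hochberg adjusted p of 0.05, and neither Gpi1 nor Gamt was among the 20 called. That count moved from 0 to 2029 with single arrays left out, and to 425, 481 and 783 with normexp, no scaling and scaling to the other mRNA probes. Of 21 alternatives, 7 had no call at all, Gpi1 was called in 5 and Gamt in 1, the one without knockout 1, where genotype and scan are the same split. These calls repeat the contrast on which both genes were chosen and are no support for them.

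**Figure D3:**
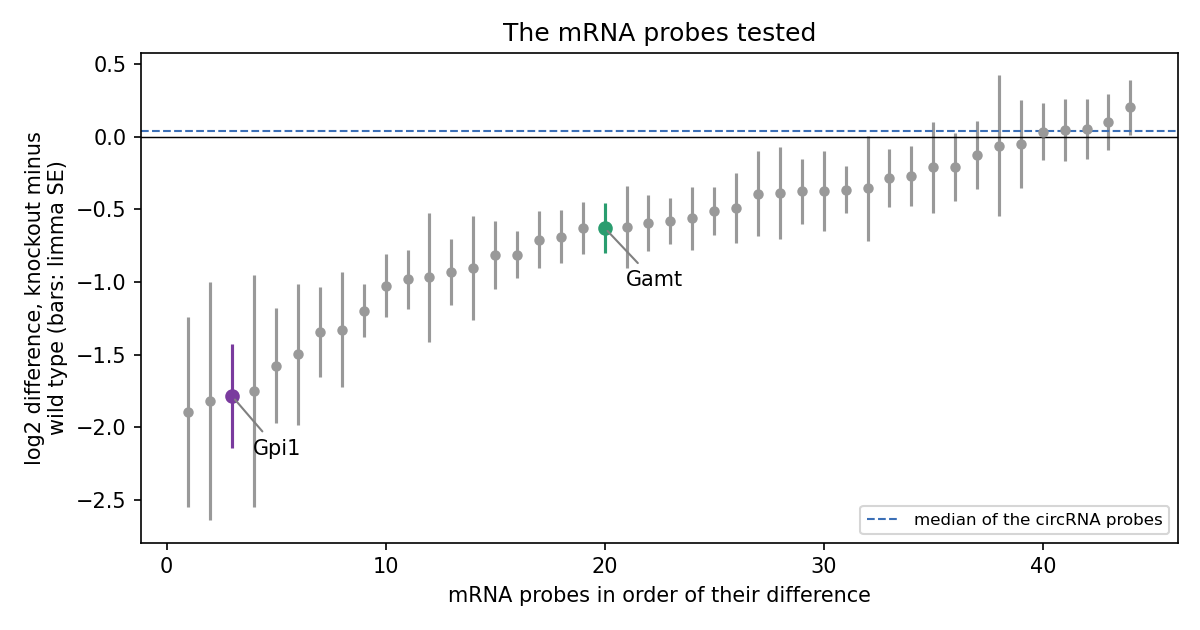
Log2 difference of knockout minus wild type for the 44 mRNA probes tested, in order, with the limma SE as bars; Gpi1 is purple, Gamt is green, and the dashed line is the circRNA median of 0.04. Gpi1, at -1.79, is at rank 3 from the left, and Gamt, at -0.63, lies in the middle of the order.

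The scan moves with the genotype, since both arrays of scan 2 are knockouts, and beyond knockout 1 the scan and the genotype cannot be told apart. Within scan 1, where knockout 1 met the 3 wild-type arrays, Gpi1 differed by -1.51 (limma SE 0.396), a signal 2.84-fold lower in knockout 1 than the mean of the wild types. Against that mean, knockouts 2 and 3 of scan 2 were 5.63-fold and 2.57-fold lower. The Gpi1 value of knockout 1 therefore lay between those of the scan 2 knockouts. Gamt differed within scan 1 by -0.44 (limma SE 0.196), 1.36-fold lower on knockout 1, and was 1.79-fold and 1.52-fold lower on knockouts 2 and 3. For Gamt the scan 1 knockout showed the smallest difference of the 3. The values within scan 1 rest on a single knockout mouse.

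Each member was then set beside the other named mRNA probes by the root mean square difference between their profiles over the 6 arrays, after each probe was centred on its own mean. Ppara, which encodes a nuclear receptor for fatty acids, was nearest to Gpi1 among 37 candidates, at a distance of 0.370. Its log2 signal was -2.34, -2.46 and -2.07 in wild type and -3.81, -4.14 and -2.94 in knockout, with the lowest array in knockout 2 and the highest in wild type 3, as for Gpi1. Il2, a T cell cytokine gene, followed at 0.545 and Acaa2, a gene of mitochondrial fatty acid oxidation, at 0.559. Both of these had dim probes that were well above background on 5 of 6 arrays.

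The profiles nearest to Gamt were much closer to it than any was to Gpi1. Anxa8, an annexin gene, lay at 0.144 and Olfr166, an olfactory receptor gene, at 0.153, both among the 3 nearest. Anxa8 had log2 signals of -2.46, -2.70 and -2.45 in wild type and -3.35, -3.41 and -3.28 in knockout. Olfr166 had 1.02, 0.91 and 0.77 in wild type and 0.48, 0.10 and 0.06 in knockout. Gpi1 and Gamt themselves were 0.677 apart, which placed Gamt ninth among the 37 candidates for Gpi1 and Gpi1 at rank 32 for Gamt. The measure depends on the size of a change, and the Gamt difference of -0.63 lay near the median of -0.59 over the mRNA probes. Why Gamt had closer neighbours than Gpi1 was not tested.

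The rest of both pathways was barely covered by the mRNA probes. Of 27 genes listed for glycolysis only Gpi1 had a probe with a symbol, and of 7 genes for creatine synthesis, transport and phosphorylation only Gamt. No gene listed for the pentose phosphate pathway (8 genes), the methionine cycle (7 genes) or the use of glycogen and fructose 6-phosphate (10 genes) was among them. Of 13 listed Nrf2 targets only Gsta4, a glutathione transferase gene, had a probe. Its log2 signal was -3.68, -3.49 and -2.68 in wild type and -3.06, -3.73 and -3.21 in knockout. The Gsta4 groups overlapped, and the difference of -0.05 (limma SE 0.303) did not pass (limma adjusted p = 0.934 over all probes). The Nrf2 transcript itself was not analysed here, and the genotypes stand as labelled.

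Of the cell type markers listed, 4 had a probe. Apoe, an astrocyte gene, was at 2.31 ± 0.30 in wild-type mice against 2.41 ± 0.01 in knockouts (SD, n = 3 each), and Mbp, of oligodendrocyte myelin, at 0.11 ± 0.26 and -0.25 ± 0.74. Neuronal Chgb was at -0.85 ± 0.19 and -1.47 ± 0.55, and Gabrg1, a GABA receptor subunit gene, at -4.45 ± 0.39 and -6.34 ± 1.48. The Gabrg1 probe was dim, well above background on 5 of 6 arrays, and on knockout 3 it lay close to the floor of -8.00. On knockout 1, Chgb at -0.92, Mbp at 0.24 and Apoe at 2.41 lay within the wild-type range, while Gabrg1 at -4.95 lay below its lowest wild-type array at -4.87. On knockouts 2 and 3, Chgb at -1.46 and -2.02 and Gabrg1 at -6.19 and -7.89 lay below all their wild-type arrays. Mbp, at 0.12 and -1.10, did so on knockout 3 only, and Apoe, at 2.40 and 2.42, stayed within the wild-type range. None of these 4 passed over all probes, with limma adjusted p from 0.120 to 0.757. The part of cell composition in the lower Gpi1 and Gamt signal was not tested.

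Across the ways of processing the arrays, the Gpi1 difference ran from -2.0 to -1.37 and the Gamt difference from -0.72 to -0.21. The span was wider for Gpi1, whose difference was also the larger. The Gpi1 groups did not overlap in any of the 17 alternatives for which the gap was computed. Those that leave out an array cannot bring an overlap where there was none. All knockout arrays lay below all wild-type arrays for 3.8% to 25.4% of all probes in these alternatives. Leaving out knockout 2, the lowest array for both probes, gave -1.43 for Gpi1 and -0.52 for Gamt.

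**Figure D4:**
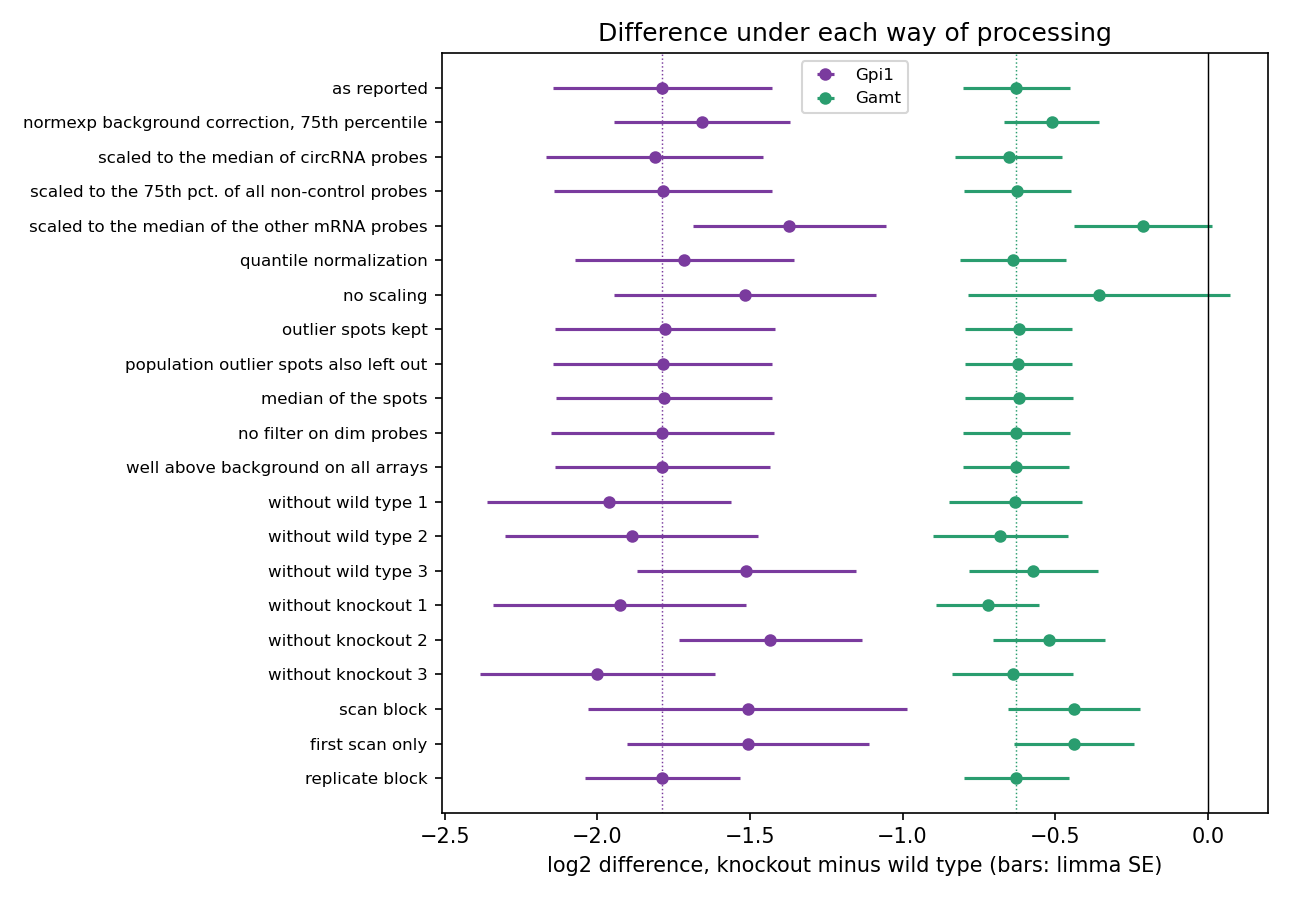
Log2 difference of knockout minus wild type, with the limma SE as bars, for Gpi1 (purple) and Gamt (green) as reported and under each alternative; dotted lines mark the reported values. Gpi1 runs from -2.0 to -1.37, and Gamt comes nearest to 0, at -0.21, when arrays are scaled to the other mRNA probes.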

How the data were processed

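Each mouse gave 1 one-colour Arraystar circRNA array. Each deposited scanner file, from Feature Extraction 11.0.1.1 per the file headers, gives spot intensity values already corrected for background and not scaled between arrays. The log2 values of the deposited series matrix cover circRNA probes only and neither member, so they gave no value here. The log2 processed signal was averaged over a probe's spots without non-uniform outliers, and the array's 75th percentile over circRNA probes was subtracted. Probes well above background on at least 3 of 6 arrays (for 10 spots, on at least 50% of them) entered a limma 3.58.1 fit (lmFit, eBayes, in R 4.3.3 with the package data.table in version 1.17.8), genotype as the only term, with Benjamini-Hochberg adjustment over all 13441 probes. The fit was tested on simulated data. Symbols came from RefSeq transcript accessions (44 of 50 matched). The precision is limited by the 3 arrays per genotype. The members and all lists were chosen with earlier results of these data known. Named were the members, genes of the lists and the 3 nearest mRNA profiles of each member, and 1 gene is not reported here. Alternatives covered background correction, scaling, outlier spots, dim probes, single arrays, scan and replicate number. Figures used matplotlib 3.10.9.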

Additional observations from a re-analysis of the deposited data

How the results depend on the processing

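The Gpi1 difference and the difference of Gpi1 over Gamt moved by less than 1 SD between mice under each of 20 alternatives. Several of these alternatives could not move them. A common scaling factor cancels in Gpi1 over Gamt, and the filters on dim probes and the replicate block leave both differences as they are. With each array left out in turn, the Gpi1 difference ran from -2.0 to -1.43 and that of Gpi1 over Gamt from -1.36 to -0.91. The Gamt difference ran from -0.72 to -0.52 with each array left out, and moved by more than 1 SD under 4 alternatives. These gave -0.21 with scaling to the other mRNA probes, -0.36 unscaled, and -0.44 with the scan as a block or within scan 1. Under the same alternatives the Gpi1 difference was -1.37, -1.52 and -1.51. The SD between mice was 0.554 for Gpi1 and 0.163 for Gamt, so a move of equal size counts for more in Gamt. A common scaling factor moves both log2 differences by the same amount. The gap between the Gamt groups turned into an overlap of -0.18 with no scaling. Scaling to the other mRNA probes moved the median difference of all probes to 0.45 and no scaling to 0.31, from 0.04 as reported. Deviations of same-numbered arrays correlated at 0.19, -0.04 and 0.21, and those of differently numbered arrays from -0.39 to 0.21. These values neither show nor exclude a pairing by replicate number. With the replicate block the differences were equal, at -1.79, -0.63 and -1.16, which the balanced layout fixes in advance. The limma SE of Gpi1 was 0.254 with the block, against 0.358 as reported. The number of all probes called by limma, 20 as reported, was 425 after normexp, 783 with scaling to the other mRNA probes, 481 with no scaling, 429 with the replicate block and 4 after quantile normalization. It was 0 with outlier spots kept (3705 at an unadjusted p under 0.05), with no filter on dim probes (3728), with the scan as a block (1201) and within scan 1 (1223), and ran from 0 to 2029 with each array left out, the latter without knockout 1. The cause was not tested. Leaving out population outlier spots and the gaps between groups were added after the data had been seen.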
